A study of Mus musculus with 16 samples.

Results

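The 10 genes described here encode the junctions that join heart muscle cells end to end: the connexins Gja1, Gja5 and Gjc1, the desmosome genes Dsp, Pkp2, Jup, Dsg2 and Dsc2, and the adherens junction genes Cdh2 and Ctnna3. They were taken by gene symbol from a table of 57010 gene models. Each symbol matched 1 gene model, and all 10 were among the 14066 genes with enough counts to be tested. RNA was sequenced from cardiomyocytes isolated from adult C57BL/6 mouse hearts, in 16 libraries, 4 for each of 4 groups. PRODH TAC mice received AAV9-PRODH, an adeno-associated virus that carries proline dehydrogenase, the mitochondrial enzyme that starts proline breakdown, and then transverse aortic constriction (TAC), a band around the aorta that puts the left ventricle under pressure. Vector TAC mice received the control virus AAV9-Vector and TAC. PRODH sham mice received AAV9-PRODH and a sham operation, and vector sham mice AAV9-Vector and a sham operation. Every group thus carried an AAV9 virus, had surgery 3 weeks after the injection and gave its cells 4 weeks after surgery. The design text calls the overexpression cardiac-specific. Neither the promoter that drives it nor the age of the mice is stated in the labels. Whether each library is a different animal is not stated in the labels, and p-values here reflect only how much these libraries scatter, part of which can be technical.

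Heart muscle cells meet at the intercalated disc, a folded membrane that holds 3 kinds of junction. Desmosomes tie the intermediate filaments of neighbouring cells together, adherens junctions tie their actin filaments together, and gap junctions let ions pass so that the action potential spreads from cell to cell. A desmosome is built from cadherins that cross the membrane (desmoglein 2, Dsg2, and desmocollin 2, Dsc2) and from an inner plaque of plakoglobin (Jup), plakophilin 2 (Pkp2) and desmoplakin (Dsp), which holds desmin filaments. N-cadherin (Cdh2) is the cadherin of the adherens junction, and alpha-T-catenin (Ctnna3) links it to actin. Connexin 43 (Gja1) is the main connexin of working ventricular muscle. Connexin 40 (Gja5) belongs to atrial muscle, the fast conduction system and arterial endothelium, and connexin 45 (Gjc1) to nodal and developing tissue. Inherited defects of the desmosome genes cause arrhythmogenic cardiomyopathy, and loss of connexin 43 from the disc is a well known feature of failing hearts.

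Libraries held 15987580 to 22680212 estimated counts, of which genes of the mitochondrial genome took 34.55% to 36.55% in the 8 TAC libraries and 37.88% to 40.92% in the 8 sham libraries. The TMM scaling factors split the same way, at 1.085 to 1.196 after TAC and 0.809 to 0.932 after sham, and the part of this split in the TAC comparisons was not tested. Vector TAC libraries 3 and 4 stood apart from libraries 1 and 2 over all genes: their counts differed from each other by a chi-square per gene of 3.06, but from library 1 by 17.6 and 13.7 and from library 2 by 30.7 and 25.7. They had 19542 and 19475 genes with a count and scaling factors of 1.092 and 1.085, the lowest of the 8 TAC libraries. Gaps of this kind were not confined to vector TAC. Vector sham library 2 differed from libraries 1, 3 and 4 by 16.9, 19 and 21.1. PRODH sham library 4 differed from libraries 1 and 2 by 15 and 13.8. Prodh averaged 13.6 ± 1.05 CPM in PRODH TAC and 7.29 ± 1.18 CPM in vector TAC, and 13.8 ± 0.955 CPM in PRODH sham and 10.95 ± 0.454 CPM in vector sham (CPM are counts normalised to a common library total; SD, n = 4 each), with no overlap between viruses within a surgery. The 12 cardiomyocyte markers summed to 38300 to 43140 CPM in PRODH TAC, 37300 to 40060 CPM in vector TAC, 47730 to 55210 CPM in PRODH sham and 49610 to 54620 CPM in vector sham, and none was at 0. RNA of other cells was present as well: 12 fibroblast markers summed to 594 to 755 CPM in PRODH TAC, 1972 to 2122 CPM in vector TAC, 435 to 469 CPM in PRODH sham and 311 to 478 CPM in vector sham. The 12 endothelial markers summed to 643 to 741 CPM in PRODH TAC, 768 to 1025 CPM in vector TAC, 458 to 486 CPM in PRODH sham and 419 to 514 CPM in vector sham. In such bulk samples fewer cells of a type and less RNA per cell cannot be told apart.

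**Figure D1:**
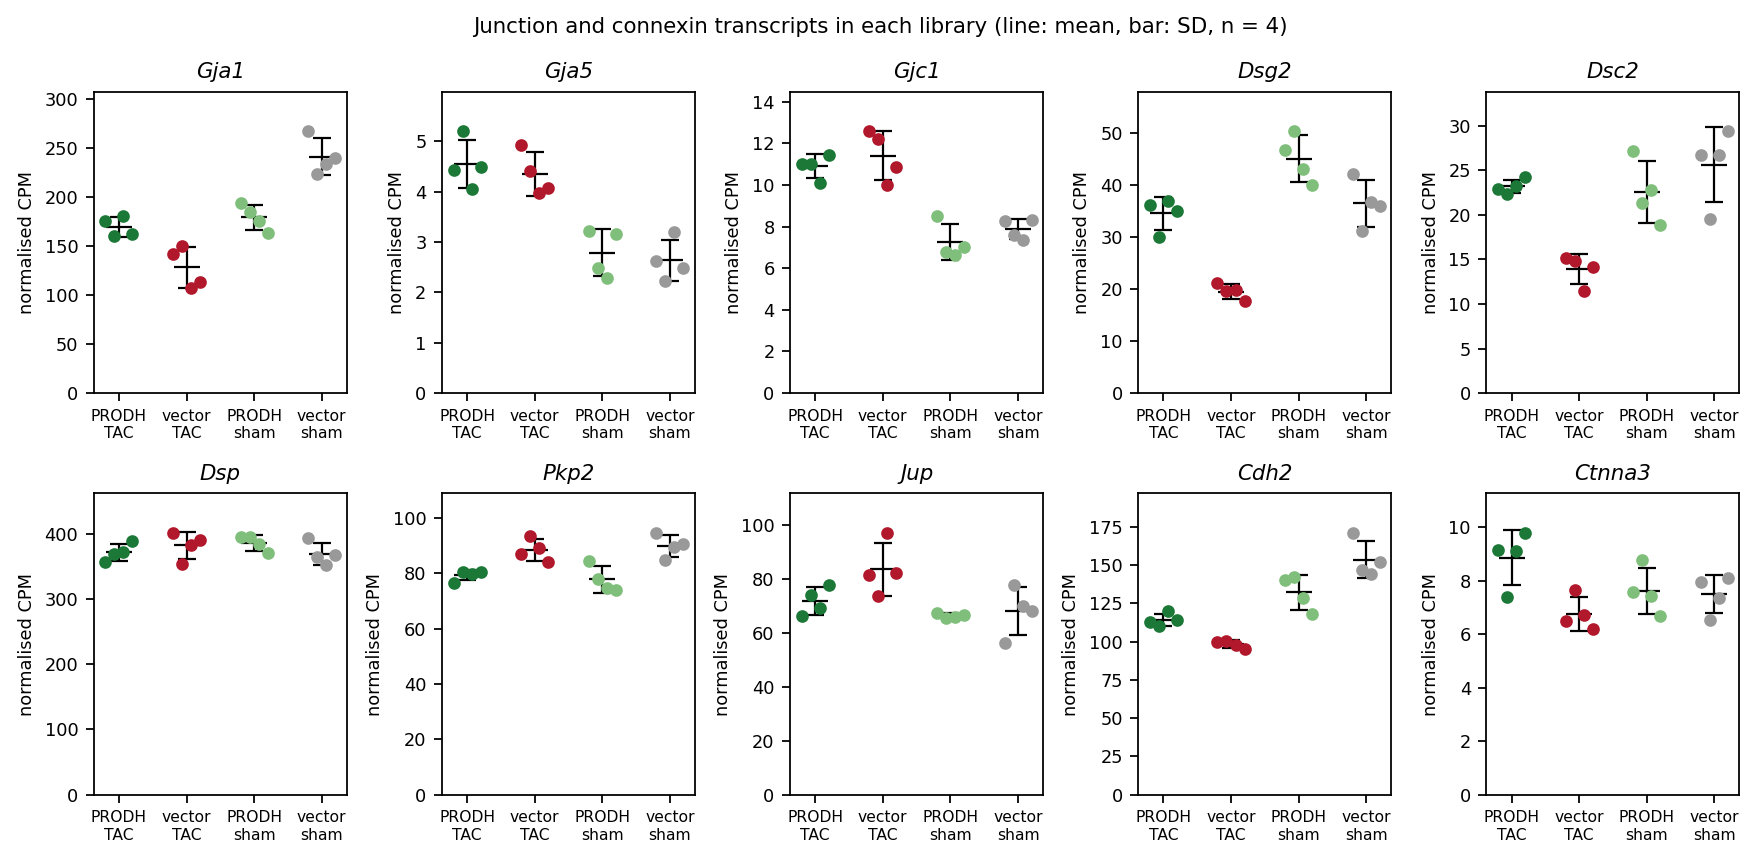
Normalised CPM (vertical axis from 0) of the 10 genes in each of the 16 libraries, by group; each point is 1 library, lines are group means and bars are SD. Gja1, Dsg2, Dsc2 and Cdh2 lie lower in vector TAC than in any other group, and Gja5 and Gjc1 lie higher in both TAC groups than in both sham groups.

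Per length of transcript, the levels of the members spanned from connexin 43 at the top to connexin 40 at the bottom. In vector sham, Gja1 stood at 75.8 ± 5.88 CPM per kilobase, Dsp at 38.5 ± 1.79, Cdh2 at 31.7 ± 2.52, Pkp2 at 30.8 ± 1.38 and Jup at 21.3 ± 2.76 CPM per kilobase (SD, n = 4). The lower levels were 6.33 ± 0.788 CPM per kilobase for Dsg2, 5.68 ± 0.936 for Dsc2, 4.17 ± 0.248 for Gjc1, 2.79 ± 0.263 for Ctnna3 and 0.719 ± 0.112 for Gja5. Within vector sham, the libraries of Cdh2 and Pkp2 overlapped, as did those of Dsg2 and Dsc2 and those of Dsc2 and Gjc1, so these neighbours hold no fixed order. In vector TAC the Gja1 libraries lay at 33.8 to 47.1 CPM per kilobase and overlapped those of Dsp, at 36.9 to 41.9 CPM per kilobase, and Gjc1 lay above Dsg2 and Dsc2. The transcripts of the desmosomal cadherins were thus a small part of desmosome RNA: Dsg2 and Dsc2 together made up 11.2% ± 0.735 of the 5 desmosome genes per length in PRODH TAC and 6.31% ± 0.564 in vector TAC. After sham they made up 12.7% ± 0.823 with PRODH and 11.7% ± 1.40 with the vector (SD, n = 4). The vector TAC libraries, at 5.59% to 6.77%, overlapped no library of another group.

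**Figure D2:**
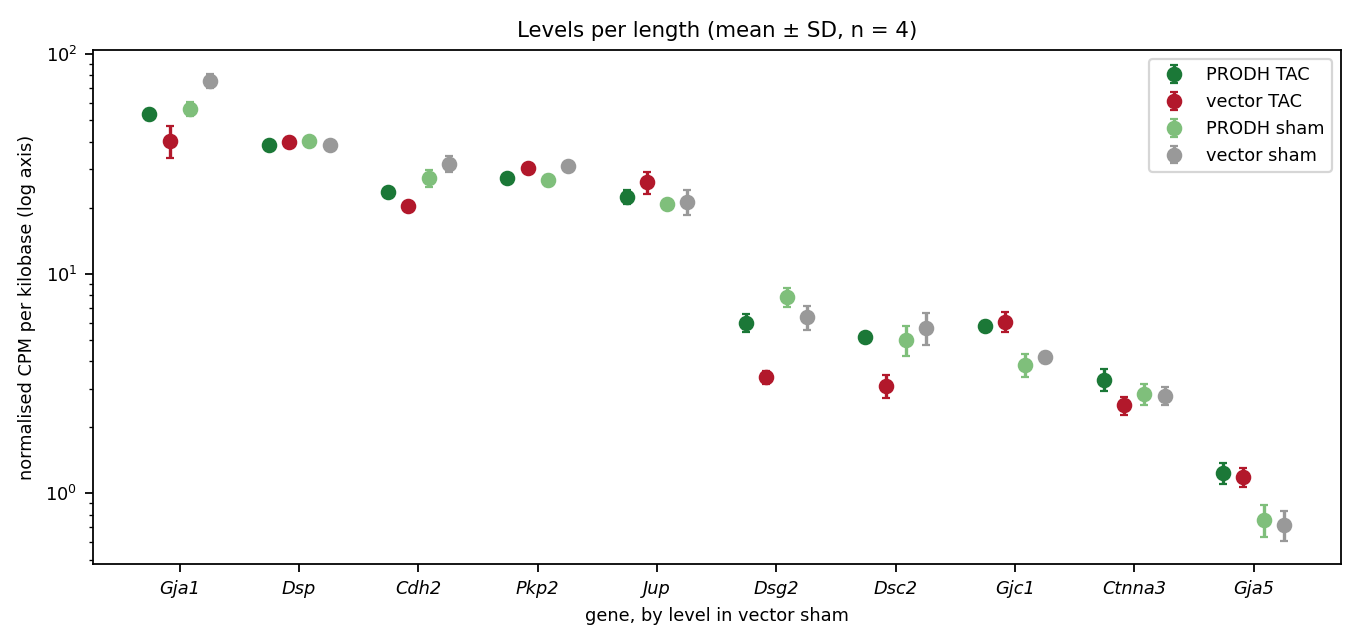
Levels of the 10 genes per kilobase of deposited gene length (normalised CPM per kilobase, log axis), ordered by their level in vector sham; points are means of 4 libraries and bars are SD. Gja1 is highest in vector sham at 75.8 CPM per kilobase and meets Dsp in vector TAC, and Gja5 is lowest in every group.

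TAC under the control virus, the first comparison the design text names, separated the members into 3 sets. The transcripts of connexin 43 and of the 3 cadherins (Dsg2, Dsc2 and Cdh2) fell, those of connexin 40, connexin 45 and plakoglobin rose, and desmoplakin, plakophilin 2 and alpha-T-catenin did not pass the test. Of the 10 members, 3 were called higher and 4 lower, against 56.5% of all tested genes called (30.3% higher and 26.2% lower), so the count alone does not set the members apart. In 6 of 10 the vector TAC and vector sham libraries did not overlap, against 47.1% of all tested genes (26.1% higher and 21.1% lower). The median log2 fold change was -0.08 over the members and 0.02 over all tested genes. Calls are from edgeR's quasi-likelihood test at a Benjamini-Hochberg adjusted p under 0.05.

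Connexin 43 fell to about the same relative extent as Dsg2. Gja1 (ENSMUSG00000050953) had 142, 150.0, 107 and 113 CPM in the 4 vector TAC libraries, against 267, 224, 234 and 239.6 CPM in the 4 vector sham libraries. Every vector TAC library lay below every vector sham library, and within vector TAC libraries 3 and 4 lay below libraries 1 and 2. The log2 fold change was -0.91 ± 0.09 (SE), which is 0.532-fold (edgeR adjusted p = 7.07e-10). The Gja1 promoter is shown beside that of Gja5 because these connexins moved in opposite directions under the same load. Both stretches hold the 250 bases before the annotated gene start in RefSeq on GRCm38.p6, plus strand, at chr10:56377050-56377299 for Gja1 and chr3:97032152-97032401 for Gja5, with letters of a searched motif in capitals.
Gja1: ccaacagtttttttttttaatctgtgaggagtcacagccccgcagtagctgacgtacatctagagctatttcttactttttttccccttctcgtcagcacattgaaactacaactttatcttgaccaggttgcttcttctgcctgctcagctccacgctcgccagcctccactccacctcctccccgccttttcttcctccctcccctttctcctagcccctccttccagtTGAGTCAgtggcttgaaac
Gja5: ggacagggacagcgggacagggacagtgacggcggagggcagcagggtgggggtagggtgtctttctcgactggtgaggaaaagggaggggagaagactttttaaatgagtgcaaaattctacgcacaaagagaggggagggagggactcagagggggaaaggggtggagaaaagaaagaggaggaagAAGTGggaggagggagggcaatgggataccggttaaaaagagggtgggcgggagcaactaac
Of the 10 members, 5 had an entry in the table of promoters. Both strands were searched for the TATA box letters TATAAA, the T-box core TCACAC, the Nkx2-5 core AAGTG and the AP-1 letters TGAGTCA, which were added after the Gja1 stretch had been read. The capitals in Gja1 mark TGAGTCA at bases -19 to -13 before the start, a run that 4.46% of 32851 promoters hold. The capitals in Gja5 mark AAGTG at bases -62 to -58, which 40.7% of promoters hold. Neither stretch held TATAAA, found in 12.4% of promoters, or TCACAC, found in 12.3%. A match is a run of letters in this window and no evidence of binding.

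Connexin 40 and connexin 45 rose. Gja5 (ENSMUSG00000057123), the lowest of the members with 37 to 126 counts a library, had 4.93, 4.42, 3.98 and 4.07 CPM in vector TAC, against 2.63, 2.23, 3.20 and 2.49 CPM in vector sham. All 4 vector TAC libraries lay above all 4 vector sham libraries, with a log2 fold change of 0.73 ± 0.15 (SE; edgeR adjusted p = 1.4e-04). Gjc1 (ENSMUSG00000034520) had 12.6, 12.2, 10.01 and 10.8 CPM in vector TAC, against 8.26, 7.61, 7.36 and 8.31 CPM in vector sham. These groups did not overlap either, with a log2 fold change of 0.54 ± 0.10 (SE; edgeR adjusted p = 4.59e-05). Connexin 45 is also made in vascular muscle and connexin 40 in arterial endothelium, and markers of vessels moved in the same libraries: 12 of 12 arterial endothelial markers were called higher in vector TAC, with a summed level of 136 to 161 CPM in vector TAC and 52.4 to 63.8 CPM in vector sham, and 6 of 10 mural markers were called higher and 2 lower. Their part in the connexin values was not tested. Of 7 atrial markers 4 were called higher and 1 lower, and of 8 tested conduction system markers 3 were called higher and 2 lower.

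The balance of the 3 connexins, which does not depend on how libraries are scaled, changed with them. Per length, Gja1 made up 84.7% ± 0.967 of the 3 connexin transcripts in vector TAC and 93.9% ± 0.261 in vector sham (SD, n = 4). There were 15.1 ± 1.06 Gjc1 transcripts for every 100 of Gja1 in vector TAC and 5.52 ± 0.312 in vector sham. For Gja5 these values were 2.98 ± 0.293 in vector TAC and 0.952 ± 0.158 in vector sham. None of these ratios overlapped between the groups.

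Desmosomal cadherins fell beside a plaque that did not fall with them. Dsg2 (ENSMUSG00000044393) had 21.1, 19.5, 19.8 and 17.7 CPM in vector TAC, against 42.2, 31.1, 36.8 and 36.0 CPM in vector sham. Dsc2 (ENSMUSG00000024331) had 15.2, 14.8, 11.5 and 14.1 CPM in vector TAC, against 26.8, 19.6, 26.7 and 29.4 CPM in vector sham. Both genes were lower in every vector TAC library than in any vector sham library, with log2 fold changes of -0.90 ± 0.09 (SE) for Dsg2 and -0.88 ± 0.11 for Dsc2 (edgeR adjusted p = 1.63e-09 and 2.77e-07). Desmoplakin, the protein that reaches from the plaque to desmin, showed 354 to 402 CPM for Dsp in vector TAC and 353 to 393 CPM in vector sham. Plakophilin 2, which also steadies connexin 43 and the sodium channel at the disc, showed 84.3 to 93.4 CPM for Pkp2 in vector TAC and 84.9 to 94.7 CPM in vector sham. Neither passed the test, with log2 fold changes of 0.05 ± 0.06 (SE) for Dsp and -0.02 ± 0.06 for Pkp2 (edgeR adjusted p = 0.533 and 0.785). Plakoglobin, which also binds N-cadherin, had 81.5, 73.8, 97.3 and 82.2 CPM for Jup in vector TAC, against 56.5, 77.9, 70.1 and 68.2 CPM in vector sham. Its groups overlapped by 1 library on each side, and the log2 fold change was 0.29 ± 0.08 (SE; edgeR adjusted p = 0.00418). Without vector TAC libraries 3 and 4 it was 0.18 and no longer passed (edgeR adjusted p = 0.105).

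Ratios within a library give the same division without any scaling. Per length, Dsg2 stood at 8.52 ± 0.688 transcripts for every 100 of Dsp in vector TAC and 16.4 ± 1.61 in vector sham (SD, n = 4), without overlap. Dsc2 stood at 7.76 ± 1.05 for every 100 of Dsp in vector TAC and 14.8 ± 2.46 in vector sham, also without overlap. The proportion between the desmosomal cadherins showed no such gap, with 91.35 ± 12.1 Dsc2 transcripts for every 100 of Dsg2 in vector TAC and 89.8 ± 11.4 in vector sham, and these groups overlapped.

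N-cadherin, the cadherin of the adherens junction, fell as well. Cdh2 (ENSMUSG00000024304) had 99.7, 100.5, 97.8 and 94.9 CPM in vector TAC, against 171, 147, 144 and 152 CPM in vector sham. The vector TAC libraries lay close together and all below vector sham, with a log2 fold change of -0.64 ± 0.07 (SE; edgeR adjusted p = 5.13e-09). Ctnna3 had 6.18 to 7.64 CPM in vector TAC and 6.55 to 8.09 CPM in vector sham, which overlapped, and its log2 fold change of -0.15 ± 0.12 (SE) did not pass the test (edgeR adjusted p = 0.296). Per length, Cdh2 stood at 78.5 ± 9.85 transcripts for every 100 of Jup in vector TAC and 152 ± 33.5 in vector sham (SD, n = 4). The 12 cardiomyocyte markers had a median log2 fold change of -0.39 in this comparison, with 10 of 12 called lower, and the 12 fibroblast markers one of 2.28, with 12 of 12 called higher. Their part in the falls was not tested. With libraries scaled by the cardiomyocyte markers Gja1 was at -0.50, Dsg2 at -0.49, Dsc2 at -0.47 and Cdh2 at -0.23 on the log2 scale, all called lower. The same scaling moved the median of all tested genes to 0.43 and put Dsp at 0.46 and Pkp2 at 0.38, both called higher. With library size alone that median was 0.37, Dsp was at 0.40 and Pkp2 at 0.33, so whether these plaque genes stood still or rose depends on the scaling.

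**Figure D3:**
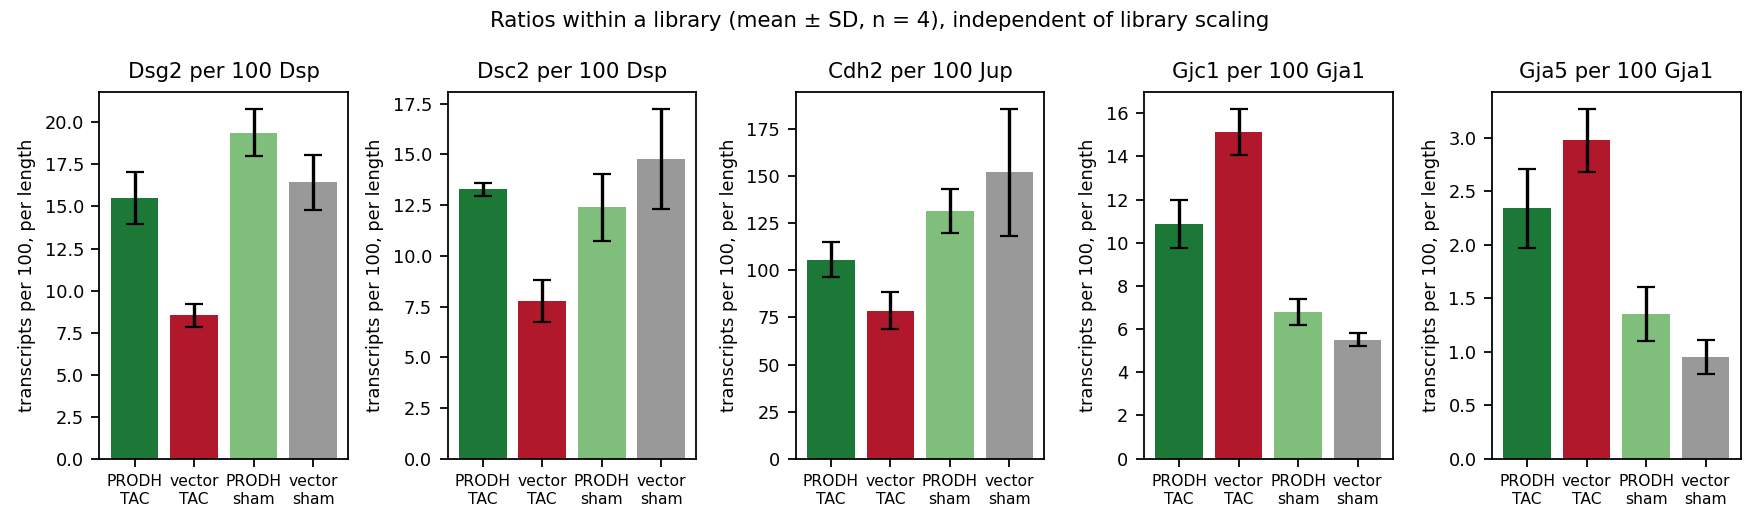
Ratios of transcripts within a library, per length (number for every 100 of the second gene, axis from 0), which do not depend on library scaling; bars are means of 4 libraries and error bars are SD. Dsg2 and Dsc2 against Dsp are lowest in vector TAC at 8.52 and 7.76, and Gjc1 and Gja5 against Gja1 are highest there at 15.1 and 2.98.

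PRODH against the control virus after TAC, the second comparison the design text names, gave higher transcripts of the cadherins and of connexin 43 and left connexin 40 and connexin 45 without a call. Gja1, Dsg2, Dsc2, Cdh2 and Ctnna3 were called higher and Pkp2 and Jup lower, 7 of 10 members, against 43.1% of all tested genes called (18.5% higher and 24.6% lower). The groups did not overlap in 5 of 10 members, against 39.3% of all tested genes (16.7% higher and 22.6% lower). The median log2 fold change was 0.14 over the members and -0.04 over all tested genes. This comparison shares the vector TAC libraries with the one above, so their directions are not independent. Only 3 members, all higher (Gja1, Dsg2 and Dsc2), were called without vector TAC libraries 3 and 4. These libraries were picked after seeing their lower Gja1. They stood apart from the other vector TAC libraries over all genes as well, as vector sham library 2 did from its own group. That setting also shrinks the vector TAC group, and no other pair was left out. A part of these libraries in the lost calls therefore cannot be told apart from that of a smaller group.

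The desmosomal cadherins had the largest differences. Dsg2 had 36.2, 30.1, 37.0 and 35.0 CPM in PRODH TAC, against 21.1, 19.5, 19.8 and 17.7 CPM in vector TAC. Dsc2 had 22.9, 22.4, 23.2 and 24.2 CPM in PRODH TAC, against 15.2, 14.8, 11.5 and 14.1 CPM in vector TAC. For both genes the lowest PRODH TAC library exceeded the highest vector TAC library, with log2 fold changes of 0.82 ± 0.09 (SE) for Dsg2, or 1.77-fold, and 0.74 ± 0.11 for Dsc2, or 1.67-fold (edgeR adjusted p = 1.74e-08 and 7.33e-06). Per length, Dsg2 reached 15.5 ± 1.54 transcripts for every 100 of Dsp in PRODH TAC and 8.52 ± 0.688 in vector TAC, and Dsc2 13.3 ± 0.319 in PRODH TAC and 7.76 ± 1.05 in vector TAC (SD, n = 4), again without overlap.

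Connexin 43 and both adherens junction genes were called higher too, with smaller fold changes. Gja1 had 176, 159.9, 181 and 162 CPM in PRODH TAC, against 142, 150.0, 107 and 113 CPM in vector TAC. The closest libraries were 159.9 CPM in PRODH TAC and 150.0 CPM in vector TAC, and the log2 fold change was 0.40 ± 0.09 (SE; edgeR adjusted p = 4.79e-04). Without vector TAC libraries 3 and 4, Gja1 stood at 0.22 on the log2 scale (edgeR adjusted p = 0.0495), a setting that favours a smaller difference, since the libraries were picked for their low Gja1. Cdh2 had 113, 110.4, 119.8 and 114 CPM in PRODH TAC, against 99.7, 100.5, 97.8 and 94.9 CPM in vector TAC, without overlap, and a log2 fold change of 0.22 ± 0.07 (SE; edgeR adjusted p = 0.0128). Ctnna3 had 9.17, 7.39, 9.10 and 9.80 CPM in PRODH TAC, against 6.51, 7.64, 6.71 and 6.18 CPM in vector TAC. Only PRODH TAC library 2 fell within the vector TAC range, and the log2 fold change was 0.39 ± 0.11 (SE; edgeR adjusted p = 0.00461). Without vector TAC libraries 3 and 4 the log2 fold changes were 0.19 ± 0.08 (SE) for Cdh2 and 0.33 ± 0.14 for Ctnna3, close to those with all libraries, but with 2 vector TAC libraries left neither passed (edgeR adjusted p = 0.0833 and 0.0613). The call of Cdh2 was also lost with scaling by cardiomyocyte markers (log2 fold change 0.15, edgeR adjusted p = 0.15).

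The plaque genes Jup and Pkp2 were called lower and Dsp was not called, and the other connexins showed no difference that passed. Jup had 66.4, 74.1, 69.1 and 78.0 CPM in PRODH TAC, against 81.5, 73.8, 97.3 and 82.2 CPM in vector TAC, which overlapped, with a log2 fold change of -0.22 ± 0.08 (SE; edgeR adjusted p = 0.035). Pkp2 had 76.6, 80.4, 79.7 and 80.7 CPM in PRODH TAC, against 86.9, 93.4, 89.3 and 84.3 CPM in vector TAC, which did not overlap, with a log2 fold change of -0.16 ± 0.06 (SE; edgeR adjusted p = 0.048). Both calls sit at the threshold: that of Jup was kept in 4 of 16 fits that each left out 1 library and that of Pkp2 in 1 of 16. Dsp lay at 356 to 389 CPM in PRODH TAC and 354 to 402 CPM in vector TAC, with a log2 fold change of -0.04 ± 0.06 (SE; edgeR adjusted p = 0.635). Gja5 lay at 4.06 to 5.21 CPM in PRODH TAC and 3.98 to 4.93 CPM in vector TAC, with a log2 fold change of 0.06 ± 0.13 (SE; edgeR adjusted p = 0.76). Gjc1 lay at 10.1 to 11.5 CPM in PRODH TAC and 10.01 to 12.6 CPM in vector TAC, with a log2 fold change of -0.07 ± 0.09 (SE; edgeR adjusted p = 0.585). In the same libraries 11 of 12 arterial endothelial markers were called lower with PRODH, with a summed level of 80.6 to 99.1 CPM in PRODH TAC and 136 to 161 CPM in vector TAC. Of 10 mural markers 2 were called higher and 5 lower, and of 7 atrial markers 3 higher and 3 lower. Of 8 tested conduction system markers 3 were called higher and 1 lower. All 12 fibroblast markers were called lower with PRODH (median log2 fold change -1.37), 4 of 12 cardiomyocyte markers were called higher and 1 lower (median 0.02), and their part in the member values was not tested.

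**Figure D4:**
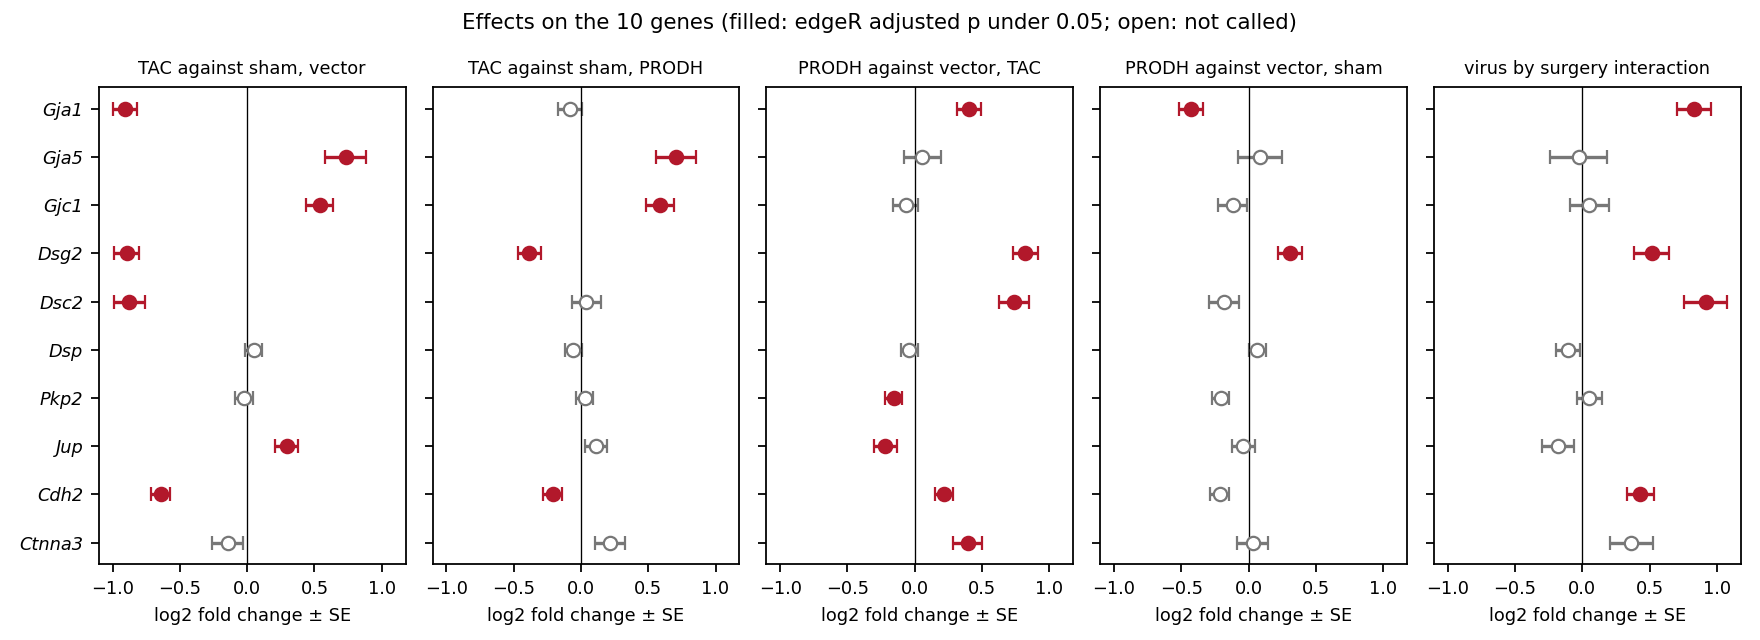
Log2 fold changes of the 10 genes in 4 comparisons and the interaction (horizontal axis, bars are SE from edgeR); filled points passed a Benjamini-Hochberg adjusted p under 0.05 over all tested genes. Gja1, Dsg2, Dsc2 and Cdh2 are lower with TAC under the vector and have positive interactions, while Gja5 and Gjc1 are higher with TAC under both viruses.

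TAC under PRODH gave calls for the minor connexins and for a pair of cadherins. Gja5 and Gjc1 were called higher and Dsg2 and Cdh2 lower, 4 of 10 members, against 35.0% of all tested genes called (17.2% higher and 17.8% lower), and 3 of 10 did not overlap, against 34.7% of all tested genes (17.3% higher and 17.4% lower). Gja1 had 176, 159.9, 181 and 162 CPM in PRODH TAC, against 194, 185, 176 and 163 CPM in PRODH sham, which overlapped, with a log2 fold change of -0.08 ± 0.09 (SE; edgeR adjusted p = 0.504). Dsc2 likewise overlapped, with 22.4 to 24.2 CPM in PRODH TAC and 18.9 to 27.1 CPM in PRODH sham and a log2 fold change of 0.04 ± 0.11 (SE; edgeR adjusted p = 0.813). Dsg2 was lower, with 36.2, 30.1, 37.0 and 35.0 CPM in PRODH TAC, against 46.8, 50.4, 43.1 and 40.0 CPM in PRODH sham. These did not overlap, and the log2 fold change was -0.38 ± 0.09 (SE; edgeR adjusted p = 0.00107). For Cdh2, values of 110.4 to 119.8 CPM in PRODH TAC and 118 to 142 CPM in PRODH sham gave a log2 fold change of -0.21 ± 0.07 (SE; edgeR adjusted p = 0.0186), a call kept in 10 of 16 fits that left out 1 library (edgeR adjusted p up to 0.147). The rises of the minor connexins were close in size to those under the vector: 0.71 ± 0.15 (SE) for Gja5 and 0.59 ± 0.10 for Gjc1 on the log2 scale (edgeR adjusted p = 4.14e-04 and 4.64e-05), with no overlap between PRODH TAC and PRODH sham. Markers of other cells moved here as well: 7 of 12 arterial endothelial, 11 of 12 endothelial, 8 of 10 mural, 9 of 12 fibroblast and 6 of 7 atrial markers were called higher and none lower, with medians of 0.45, 0.49, 0.76, 0.91 and 1.06 on the log2 scale. Arterial endothelial markers summed to 80.6 to 99.1 CPM in PRODH TAC and 63.1 to 66.9 CPM in PRODH sham. Of 12 cardiomyocyte markers 8 were called lower and 1 higher (median -0.31), and the part of these markers in the member values was not tested. Of the 4 calls, only the rises of Gja5 and Gjc1 held under every scaling. With library size alone, 8 members were called, all higher, Dsg2 stood at -0.01 and Gja1 at 0.29 on the log2 scale, and the median of all tested genes was 0.40. Scaling by cardiomyocyte markers gave 7 members called, all higher, with Dsg2 at -0.06.

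The interaction, which tests whether the TAC effect differed between the viruses, passed for connexin 43 and the 3 cadherins. The TAC effect under PRODH exceeded that under the vector by 0.92 ± 0.16 (SE) for Dsc2, 0.83 ± 0.12 for Gja1, 0.51 ± 0.13 for Dsg2 and 0.43 ± 0.10 for Cdh2 on the log2 scale (edgeR adjusted p = 9.02e-05, 1.03e-05, 0.00314 and 0.00155). These were 4 of 10 members, all positive, against 26.8% of all tested genes called (10.9% positive and 15.8% negative). All 4 calls held in the 16 fits that left out 1 library and in the 9 other settings run. Gja5 and Gjc1 had interactions of -0.03 ± 0.21 (SE) and 0.05 ± 0.14 on the log2 scale (edgeR adjusted p = 0.942 and 0.832), which leaves room for sizeable differences in Gja5. Dsp, Pkp2, Jup and Ctnna3 did not pass either, with values of -0.18 for Jup to 0.36 for Ctnna3.

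The sham groups enter each interaction too. PRODH against the vector without load gave calls for Gja1, lower, and Dsg2, higher, 2 of 10 members, against 5.0% of all tested genes called (2.81% higher and 2.20% lower). Gja1 had 194, 185, 176 and 163 CPM in PRODH sham, against 267, 224, 234 and 239.6 CPM in vector sham. All PRODH sham libraries lay below all vector sham libraries, and the log2 fold change was -0.43 ± 0.09 (SE; edgeR adjusted p = 0.00207). Scaled by cardiomyocyte markers it was -0.41 and just missed the threshold (edgeR adjusted p = 0.0533). The Gja1 interaction of 0.83 is therefore the sum of a difference of 0.40 between the viruses after TAC and one of -0.43 after sham, counted with its sign turned. For Dsg2 the sham difference has the same sign as that after TAC and makes its interaction smaller. Dsg2 had 46.8, 50.4, 43.1 and 40.0 CPM in PRODH sham, against 42.2, 31.1, 36.8 and 36.0 CPM in vector sham, which overlapped, with a log2 fold change of 0.31 ± 0.09 (SE; edgeR adjusted p = 0.0375). That call was lost in 6 of 16 fits that left out 1 library. For Cdh2 the difference between the viruses was -0.21 ± 0.07 (SE) after sham and 0.22 ± 0.07 after TAC. Its interaction of 0.43 thus holds a sham part about as large as the TAC part. For Dsc2 these differences were -0.18 ± 0.11 (SE) after sham and 0.74 ± 0.11 after TAC. Neither sham difference passed the test (edgeR adjusted p = 0.0766 for Cdh2 and 0.461 for Dsc2). The groups did not overlap in 3 of 10 members, all lower in PRODH sham (Gja1, Pkp2 and Cdh2), against 10.4% of all tested genes (5.25% higher and 5.17% lower). Pkp2, with 74.2 to 84.6 CPM in PRODH sham and 84.9 to 94.7 CPM in vector sham, and Cdh2, with 118 to 142 CPM in PRODH sham and 144 to 171 CPM in vector sham, did not pass (edgeR adjusted p = 0.0598 and 0.0766). Within the pair of desmosomal cadherins the proportion differed here, with 64.1 ± 8.70 Dsc2 transcripts for every 100 of Dsg2 in PRODH sham and 89.8 ± 11.4 in vector sham (SD, n = 4), without overlap.

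Among the other genes of these junctions, more of the listed adherens and desmosome genes rose than fell with TAC under the vector. Of 20 adherens and desmosome partners 13 were tested, with 9 called higher and 2 lower in vector TAC against vector sham. There 56.5% of all tested genes were called, 30.3% higher and 26.2% lower. The median log2 fold change was 0.45 over the 13 partners and 0.02 over all tested genes. Pkp4, a plakophilin relative of cell contacts, averaged 72.1 ± 3.56 CPM in vector TAC and 42.8 ± 2.38 CPM in vector sham, a log2 fold change of 0.75 ± 0.07 (SE; edgeR adjusted p = 7.71e-11). Ctnnd1, p120-catenin, which holds cadherins at the membrane, averaged 53.3 ± 7.15 CPM in vector TAC and 31.1 ± 0.182 CPM in vector sham, and Ctnnbip1, an inhibitor of beta-catenin signalling, 16.2 ± 1.54 CPM in vector TAC and 8.78 ± 0.924 CPM in vector sham. Cdh11, a cadherin of mesenchymal cells, averaged 7.22 ± 0.692 CPM in vector TAC and 2.63 ± 0.396 CPM in vector sham. All 3 were called higher, and Cdh11 moved beside the fibroblast markers. Ctnna1 and Nectin2 were the 2 called lower, the direction in which Cdh2 moved. Their log2 fold changes were -0.32 ± 0.06 and -0.57 ± 0.10 (SE). Ctnna1 averaged 170 ± 6.30 CPM in vector TAC and 212 ± 7.03 CPM in vector sham. With PRODH after TAC 43.1% of all tested genes were called, 18.5% higher and 24.6% lower. Of the 13 partners none was called higher and 5 were called lower (median -0.16, against -0.04 over all tested genes). They included Pkp4 at 44.4 ± 2.45 CPM in PRODH TAC and 72.1 ± 3.56 CPM in vector TAC, Cdh11 at 2.91 ± 0.597 CPM in PRODH TAC and 7.22 ± 0.692 CPM in vector TAC, and the desmosomal membrane protein Perp at 69.7 ± 3.31 CPM in PRODH TAC and 99.9 ± 5.70 CPM in vector TAC. Ctnnbip1, another of them, had a log2 fold change of -0.43 ± 0.09 (SE; edgeR adjusted p = 3.67e-04).

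Of 22 other connexins, pannexins and scaffold genes only 6 had enough counts to be tested, and 4 were called higher and 2 lower with TAC under the vector, against 56.5% of all tested genes called. Tmem65, a disc protein that binds connexin 43, averaged 76.3 ± 9.96 CPM in vector TAC and 134 ± 11.8 CPM in vector sham, a log2 fold change of -0.81 ± 0.08 (SE; edgeR adjusted p = 4.27e-10), beside the fall of Gja1. Panx1, which forms channels for ATP release, averaged 3.71 ± 0.309 CPM in vector TAC and 0.680 ± 0.356 CPM in vector sham, a log2 fold change of 2.44 ± 0.26 (SE; edgeR adjusted p = 2.58e-09). Gja4, connexin 37 of arterial endothelium and itself 1 of the 12 arterial markers, averaged 5.67 ± 0.448 CPM in vector TAC and 1.90 ± 0.610 CPM in vector sham. Gja3, connexin 46, averaged 4.23 ± 0.298 CPM in vector TAC and 8.64 ± 1.37 CPM in vector sham. With PRODH after TAC 2 were called higher and 2 lower, against 43.1% of all tested genes called. Tmem65 averaged 108.6 ± 2.61 CPM and Gja3 5.72 ± 0.586 CPM in PRODH TAC, higher than in vector TAC by 0.51 ± 0.08 and 0.44 ± 0.12 on the log2 scale (SE). Panx1 averaged 0.990 ± 0.117 CPM and Gja4 3.79 ± 0.218 CPM in PRODH TAC, lower than in vector TAC, with log2 fold changes of -1.90 ± 0.23 and -0.58 ± 0.14 (SE).

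All 25 other disc proteins were tested, and 13 were called higher and 11 lower with TAC under the vector, against 30.3% higher and 26.2% lower of all tested genes (median log2 fold change 0.29, against 0.02). Xirp2, an actin-binding protein of the disc, averaged 717 ± 85.3 CPM in vector TAC and 229 ± 19.5 CPM in vector sham, a log2 fold change of 1.65 ± 0.08 (SE; edgeR adjusted p = 1.35e-16). Nrap, which anchors actin at the disc, averaged 338 ± 47.1 CPM in vector TAC and 201 ± 9.69 CPM in vector sham and was called higher. Ank2 and Kcnj2, which serve the excitable membrane, fell. Ank2 encodes ankyrin-B, which places ion transporters, and averaged 29.1 ± 1.81 CPM in vector TAC and 56.3 ± 5.58 CPM in vector sham. Kcnj2, the inward rectifier potassium channel that sets the resting potential, averaged 8.84 ± 1.14 CPM in vector TAC and 22.3 ± 4.87 CPM in vector sham, a log2 fold change of -1.33 ± 0.12 (SE; edgeR adjusted p = 4.1e-10). With PRODH after TAC 6 of 25 were called higher and 14 lower, against 18.5% higher and 24.6% lower of all tested genes (median -0.33, against -0.04). Kcnj2 averaged 20.2 ± 0.760 CPM and Ank2 55.2 ± 3.40 CPM in PRODH TAC, higher than in vector TAC by 1.19 ± 0.12 and 0.92 ± 0.08 on the log2 scale (SE). Kcnj2 was also called higher with PRODH in sham, at 31.2 ± 3.16 CPM in PRODH sham and 22.3 ± 4.87 CPM in vector sham. With TAC under PRODH Kcnj2 was still called lower, at -0.63 ± 0.11 (SE) on the log2 scale, while Ank2 at 0.12 ± 0.08 was not called. The interaction passed for both, at 0.70 ± 0.16 for Kcnj2 and 1.07 ± 0.12 for Ank2 (SE). Xirp2 averaged 381 ± 15.4 CPM in PRODH TAC and 717 ± 85.3 CPM in vector TAC, and Des, the desmin that desmoplakin holds, 1046 ± 94.7 CPM in PRODH TAC and 1770 ± 187 CPM in vector TAC, both called lower.

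Of 15 transcription factors known to act on connexin genes 14 were tested, with 5 called higher and 3 lower in vector TAC against vector sham, near the 56.5% of all tested genes called there (median log2 fold change 0.04, against 0.02). Tbx2, a repressor of Gja1 and Gja5 in the developing heart, averaged 3.81 ± 0.788 CPM in vector TAC and 1.81 ± 0.360 CPM in vector sham, a log2 fold change of 1.06 ± 0.18 (SE; edgeR adjusted p = 1e-05). Id2, which takes part in conduction system development, averaged 5.75 ± 0.795 CPM in vector TAC and 2.78 ± 0.750 CPM in vector sham. Hey1, a Notch target that is also 1 of the arterial markers, averaged 7.63 ± 0.827 CPM in vector TAC and 3.80 ± 1.08 CPM in vector sham, and Hopx, a homeodomain protein of heart muscle, 51.8 ± 5.12 CPM in vector TAC and 91.3 ± 3.74 CPM in vector sham. Id2 and Hey1 were called higher and Hopx lower. With PRODH after TAC 2 of 14 were called higher and 7 lower, where 18.5% of all tested genes were higher and 24.6% lower (median -0.23, against -0.04). Tbx5, an activator of Gja5, averaged 7.91 ± 0.200 CPM in PRODH TAC and 5.32 ± 1.02 CPM in vector TAC, and Hopx 68.5 ± 4.04 CPM in PRODH TAC and 51.8 ± 5.12 CPM in vector TAC, both called higher. Hopx was also called higher with PRODH in sham, at 114.7 ± 9.14 CPM in PRODH sham and 91.3 ± 3.74 CPM in vector sham. Its log2 fold change with TAC under PRODH was -0.74 ± 0.07 (SE), called lower. The Hopx interaction of 0.07 ± 0.11 (SE) did not pass (edgeR adjusted p = 0.64). Hey1 and Id2 had log2 fold changes of -0.71 ± 0.14 and -0.62 ± 0.16 (SE), both called lower.

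**Figure D5:**
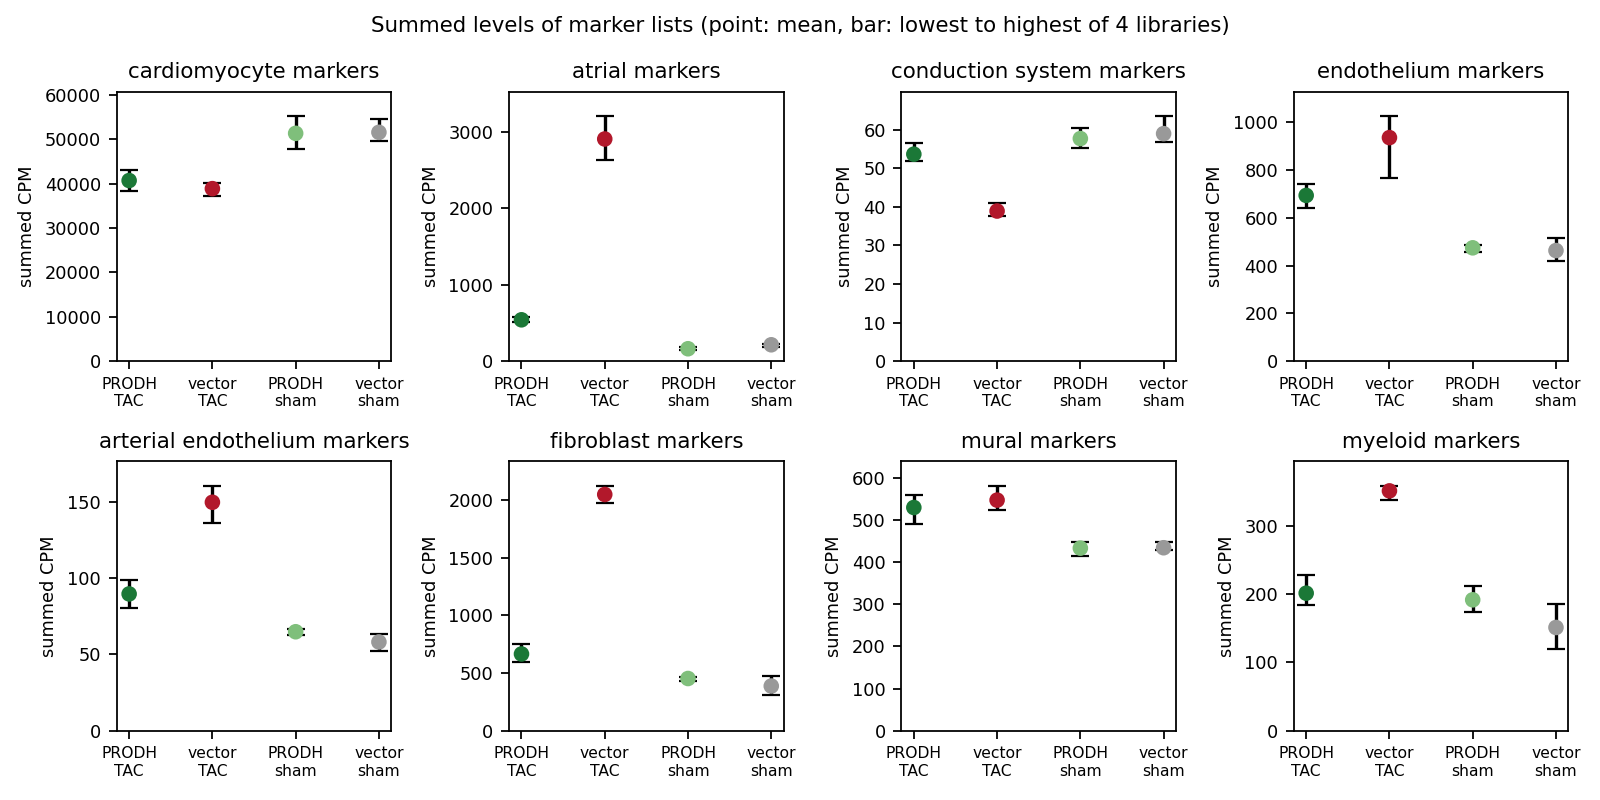
Summed normalised CPM of cell type marker lists by group (vertical axes from 0); points are means of 4 libraries and bars run from the lowest to the highest library. Arterial endothelial markers sum to 136 to 161 CPM in vector TAC and fibroblast markers to 1972 to 2122 CPM, above every other group, while cardiomyocyte markers are lower in both TAC groups than in both sham groups.

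The genes with the pattern most like that of Dsg2 over the 16 libraries were Ghr, the growth hormone receptor, Mmut, methylmalonyl-CoA mutase, and Mlf1. Their root mean square difference from Dsg2 in centred log2 CPM was 0.126, 0.133 and 0.136, against 0.461 for the spread of Dsg2 itself. Ghr averaged 78.2 CPM in PRODH TAC, 48.3 CPM in vector TAC, 95.6 CPM in PRODH sham and 90.6 CPM in vector sham. For Gja1 the nearest were Fbxo32, the muscle ubiquitin ligase atrogin-1, Chordc1 and Efcab2, with differences of 0.0985, 0.105 and 0.115 against a spread of 0.352. Fbxo32 averaged 60.3 CPM in PRODH TAC, 49.7 CPM in vector TAC, 67.2 CPM in PRODH sham and 86.5 CPM in vector sham.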

How the data were processed

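RNA of adult mouse cardiomyocytes was sequenced in 16 libraries, grouped by virus and surgery from the sample labels. Before deposit the authors turned reads into expected counts, an estimated count for each gene in each library that may be fractional. They also deposited a gene length, used here for levels per kilobase. Aligner, counting tool and genome build: not given in the sources used here. Of 57010 gene models 9538 (16.73%) held a fractional count. Gja1 and Ctnna3 each held one in 1 library and Dsp and Dsg2 in 4 each, so reads shared with similar sequences could touch these.

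Counts were rounded and tested with edgeR 4.0.16 (R 4.3.3, limma 3.58.1, data.table in version 1.17.8): filterByExpr (minimum count 10, minimum total 15), TMM scaling and a robust quasi-likelihood fit to all 16 libraries and 4 groups without a block. Benjamini-Hochberg adjustment ran over 14066 genes, at a threshold of 0.05. CPM were computed from TMM-scaled library sizes, with a prior count of 0.125 in fitted folds. The depth of 15987580 to 22680212 counts gave the members 37 to 9884 counts a library. No pair of libraries in a group was a copy (chi-square per gene 2.87 to 30.7). The procedure was tested on simulated data.

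The members and lists were chosen with earlier results of these data known. All members are named. From each of 4 lists (adherens and desmosome partners; other connexins, pannexins and their scaffold; other disc proteins; transcription factors known to act on connexin genes) up to 4 called genes with the smallest p are named per main comparison. Ctnna1 and Nectin2 are named in addition, as the adherens and desmosome partners called lower with TAC under the vector. Marker lists covered cardiomyocytes, atrial and conduction tissue, endothelium, arterial endothelium, fibroblasts, mural and myeloid cells, mesothelium and epithelium, and glia. In vector TAC against vector sham 10 of 10 myeloid, 5 of 8 mesothelial and 0 of 1 tested glial markers were called higher and none lower. With PRODH after TAC 9 of 10 myeloid and 6 of 8 mesothelial markers were called lower. Likeness was computed for standard gene symbols at 5 CPM or more. Alternatives were other scalings, filters, samples, a replicate block and DESeq2 1.42.0.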

Additional observations from a re-analysis of the deposited data

Results flagged for a closer look

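The TAC effect differed between the viruses for 4 of 10 members by the interaction test: Gja1 by 0.83, Dsg2 by 0.51, Dsc2 by 0.92 and Cdh2 by 0.43 on the log2 scale, each more positive under PRODH than under the vector. Over all tested genes 26.8% were called, 10.9% positive and 15.8% negative. Differences between the viruses after sham enter these values: -0.43 for Gja1, -0.21 for Cdh2, -0.18 for Dsc2 and 0.31 for Dsg2.

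In 4 of 116 groups of 4 libraries, 1 library stood far from the other 3, where chance gives about 1 in 20, and none of the 4 belongs to a member. Ctnnbip1 was at 18.5 CPM in vector TAC library 3, with the others at 15.3 to 15.6 CPM. Hopx was at 59.5 CPM in vector TAC library 2, with the others at 48.8 to 49.9 CPM. Gja3 was at 6.77 CPM in PRODH sham library 4, with the others at 7.41 to 7.53 CPM. Panx1 was at 1.21 CPM in vector sham library 3, with the others at 0.427 to 0.558 CPM.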

How the results depend on the processing

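The falls of Gja1, Dsg2, Dsc2 and Cdh2 in vector TAC kept direction and call in 16 fits without 1 library and in 10 other settings, and so did Gja1, Dsg2 and Dsc2 in PRODH against vector after TAC. The cause of the changes listed next was not tested.

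For TAC under the vector the median log2 fold change of all genes was 0.37 with library size alone (7474 genes called higher, 1198 lower) and 0.43 with cardiomyocyte scaling (8061 and 1006), against 0.02 (4263 and 3686). Cardiomyocyte scaling gave 1728 higher and 4103 lower, against 2603 and 3456, for PRODH against vector after TAC, and 902 and 2657, against 1540 and 2224, for the interaction. Of the 40 group means of the members, 30 moved by over 1 SD with library size alone, and vector TAC was the lowest group for 4 members, against 5. For TAC under PRODH library size alone called 8 members and 8186 genes (7875 higher, 311 lower), and cardiomyocyte scaling 7 and 7462 (7000 higher, 462 lower), against 4 and 4925 (2425 higher, 2500 lower). PRODH against vector in sham called 2 members, but 1 with library size alone, 1 with only the groups compared, 0 with cardiomyocyte scaling, 4 with DESeq2 and 1 to 3 without 1 library. After TAC 3 members were called, against 7, without vector TAC libraries 3 and 4. That setting was added after seeing the data, because Gja1 was lower there.

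Signs turned as follows, in log2. For TAC under the vector, Pkp2 was 0.33 and Ctnna3 0.21 with library size alone, 0.38 and 0.26 with cardiomyocyte scaling, and Pkp2 0.00279 without vector TAC 3 and 4. For TAC under PRODH, Gja1, Dsp and Cdh2 were 0.29, 0.32 and 0.16 with library size alone and 0.25, 0.28 and 0.12 with cardiomyocyte scaling. For PRODH against vector after TAC, Dsp was 0.00388 with library size alone, 0.00431 with only the groups compared and -0.076 to 0.00256 without 1 library. Gja5 was -0.00891 with cardiomyocyte scaling, -0.044 without vector TAC 3 and 4, and -0.012 to 0.13 without 1 library. In sham, Jup was -0.12 to 0.031 and Ctnna3 -0.045 to 0.077 without 1 library. For the interaction, Gjc1 was -0.030 and Pkp2 -0.026 with cardiomyocyte scaling, Gjc1 -0.066 without vector TAC 3 and 4, and without 1 library Gjc1 was -0.00745 to 0.19 and Gja5 -0.096 to 0.10.

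Replicate numbers did not pair the libraries: of 24 pairs of same-numbered deviations 3 correlated above 0.1 (-0.129 to 0.168). With the number as a replicate block 7, 6, 4 and 2 members were called in the order TAC under the vector, PRODH after TAC, TAC under PRODH and PRODH in sham, and 4 for the interaction. The block lost Pkp2 after TAC (edgeR adjusted p = 0.0561). Gja5, at 37 to 126 counts, is the member whose value depth limits most.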
